A study of Mus musculus with 8 samples.

Results

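The genes described here are 10 forkhead transcription factors of NMuMG cells, chosen by symbol from the 37310 genes of the deposited count table. The choice was made with earlier results of these data known. They are *Foxf1a* (the table's name for *Foxf1*), *Foxf2*, *Foxq1*, *Foxc1*, *Foxc2*, *Foxa1*, *Foxo1*, *Foxo3*, *Foxp1* and *Foxm1*. The table holds 44 forkhead symbols, so that 34 others were left for comparison. RNA was sequenced from NMuMG, a mouse mammary epithelial cell line that undergoes an epithelial-to-mesenchymal transition (EMT) when exposed to TGF-β. The groups were untreated control cells, control cells given 10 ng/ml TGF-β1 for 2 h, cells labelled knockout (KO) of the long non-coding RNA *Lnc-Nr6a1* without treatment, and KO-labelled cells given the same dose for the same time. Each group had 2 libraries, 8 in all. The KO had been made with CRISPR-Cas9 guides placed in the promoter and first exon of the RNA so as to delete the stretch between them, followed by sorting of single cells into clones. The number of clones behind the KO libraries is not given in the sources used here, so a trait of a clone and the deletion cannot be told apart.

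Forkhead factors share a winged-helix domain with which they bind related DNA sites, and members of the family act in opposite directions on growth and cell identity. FOXF1 and FOXF2 are mesenchymal regulators downstream of Hedgehog signals, FOXQ1 and the FOXC proteins are known inducers of EMT, and FOXA1 opens chromatin for luminal and hormone-responsive genes in mammary epithelium. FOXO1 and FOXO3 are held in the cytoplasm when AKT or SGK kinases phosphorylate them and otherwise drive genes of growth arrest and stress defence, FOXP1 is mainly a repressor, and FOXM1 drives genes of the G2 phase and mitosis. The control of FOXO proteins by phosphorylation does not show in RNA counts.

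*Foxq1*, *Foxf2* and *Foxc1* are neighbours on chromosome 13, and *Foxf1a* and *Foxc2* on chromosome 8. On the NCBIM37 assembly, *Foxq1* spans chr13:31650039-31652839, *Foxf2* chr13:31717685-31723272 and *Foxc1* chr13:31898515-31902504, all on the plus strand. The gap from *Foxq1* to *Foxf2* is 64.8 kb and that from *Foxf2* to *Foxc1* 175.2 kb. *Foxf1a* lies at chr8:123608286-123610851 and *Foxc2* at chr8:123640071-123642792, with 29.2 kb between them. The other members stand alone on chromosomes 3 (*Foxo1*), 6 (*Foxp1* and *Foxm1*, far apart), 10 (*Foxo3*) and 12 (*Foxa1*).

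RefSeq promoter sequences (GRCm38.p6, a later assembly than that of the gene positions above) were at hand for 6 of the 10 members: *Foxf2*, *Foxc1*, *Foxa1*, *Foxo1*, *Foxo3* and *Foxp1*. Shown are the 250 bases before the start of *Foxf2*, which rose after TGF-β, of its neighbour *Foxc1*, which was not called, and of *Foxa1*, the only one of the matched members with a forkhead site. Capitals mark GGCGC or its reverse complement GCGCC, a GC-rich site known to bind SMAD proteins, the transcription factors of the TGF-β pathway, and GTAAACA or TGTTTAC, a site bound by many forkhead proteins.
Foxf2, chr13:31625566-31625815, plus strand: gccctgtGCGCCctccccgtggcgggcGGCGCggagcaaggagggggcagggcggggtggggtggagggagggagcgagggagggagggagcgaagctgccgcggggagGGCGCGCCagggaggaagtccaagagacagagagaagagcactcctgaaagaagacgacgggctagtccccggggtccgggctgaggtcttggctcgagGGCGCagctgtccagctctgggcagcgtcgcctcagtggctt
Foxc1, chr13:31806396-31806645, plus strand: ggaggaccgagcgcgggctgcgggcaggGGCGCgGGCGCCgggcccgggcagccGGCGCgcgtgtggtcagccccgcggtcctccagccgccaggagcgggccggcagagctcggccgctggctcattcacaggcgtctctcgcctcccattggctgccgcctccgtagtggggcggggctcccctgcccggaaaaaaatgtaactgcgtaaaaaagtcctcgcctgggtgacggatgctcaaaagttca
Foxa1, chr12:57546112-57546361, minus strand: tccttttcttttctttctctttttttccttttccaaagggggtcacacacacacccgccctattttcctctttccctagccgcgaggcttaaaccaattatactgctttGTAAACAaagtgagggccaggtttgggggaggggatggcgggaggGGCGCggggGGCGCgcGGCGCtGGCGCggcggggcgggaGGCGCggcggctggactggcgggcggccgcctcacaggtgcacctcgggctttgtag
GGCGC on either strand stood 5 times in the *Foxf2* window, 4 times in that of *Foxc1* and 5 times in that of *Foxa1*, with overlapping matches counted separately, and 32% of the 32851 RefSeq promoters held it. These windows were richer in G and C (71.6%, 70.8% and 62%) than the median promoter (52.4%). GTAAACA stood in the *Foxa1* window, 141 bases before the start, and in 3.17% of all promoters. Neither CAGAC, the classical SMAD half-site (42.2% of all promoters on either strand), nor TGAGTCA, a site of AP-1 (4.46%), was found in any of these 3 windows.

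The untreated libraries held 4297832 to 7871090 counts and the treated ones 9895118 to 13574397, so depth differed with treatment. The level of 3 counts was 0.238 to 0.661 CPM (counts scaled to a common total with TMM factors), a floor that covers counting error only. A transcript below this level may be missed. *Lnc-Nr6a1*, listed as Gm13507, had 3 and 14 counts in untreated control libraries, 25 and 35 in treated control libraries, 11 and 7 in the untreated KO-labelled libraries and 0 in both treated ones. The untreated groups thus overlapped (log2 fold change of Gm13507 0.61, SE 0.83, adjusted p = 0.785, edgeR), with counts that cover the whole gene and not just the deleted stretch, so they do not check the label of the untreated KO libraries. *Foxf1a* and *Sgk3*, given below, separated the untreated groups in the same direction as the treated ones. The untreated groups did not overlap for 51.9% of all genes, so this does not check the label either. Every direction between genotypes below is one between KO-labelled and control libraries. Of the 9 epithelial markers examined, *Krt8*, *Krt18*, *Krt19* and *Cdh1* were abundant, while *Cldn3*, *Cldn7* and *Esrp1* were at 0 in every library and *Epcam* had 2 counts in all. The summed level of 8 fibroblast markers was 0.797 to 4.85 CPM, with *Lum* and *Thy1* at 0 and *Col1a1* at 0.362 to 4.24 CPM. That of 6 endothelial markers was at most 0.847 CPM, with *Kdr* at 0 and *Cdh5* at up to 0.847 CPM. For 6 immune markers the sum was 2.23 to 5.45 CPM, with *Cd3e* at 0 and *Cd68* at 1.99 to 5.32 CPM. In bulk RNA, fewer cells that express a gene and less RNA per cell cannot be told apart. The libraries of a group are described in the study's methods as biological replicates, but neither these nor the labels say whether they came from separate cultures, so the p-values measure only the spread between these libraries.

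Among the 10 members, the one with the highest level per length of exon changed with TGF-β. In untreated control cells the order of mean levels in RPKM (CPM per kb of exon) began with *Foxm1* at 18.1 ± 1.74 (SD, n = 2), *Foxp1* at 12.3 ± 0.470, *Foxo3* at 9.37 ± 0.338, *Foxf2* at 7.64 ± 2.19 and *Foxq1* at 4.89 ± 0.572. It ended with *Foxo1* at 3.04 ± 0.335, *Foxf1a* at 2.13 ± 0.614, *Foxa1* at 1.58 ± 0.0940, *Foxc1* at 0.577 ± 0.124 and *Foxc2* at 0. Of the neighbours in this order, *Foxo3* and *Foxf2* had libraries that overlapped, and no others did. In treated control cells *Foxf2* (19.1 ± 5.47 RPKM) and *Foxq1* (18.9 ± 3.82) stood first, with overlapping libraries, ahead of *Foxp1* (13.8 ± 1.12) and *Foxm1* (9.67 ± 0.370).
The untreated KO-labelled libraries began as the control cells did, with *Foxm1* at 19.2 ± 1.28 RPKM, followed by *Foxp1* (10.5 ± 0.0878) and *Foxo3* (9.95 ± 0.827), whose libraries overlapped. In treated KO-labelled libraries, *Foxf2* was first at 20.8 ± 1.82 RPKM and *Foxq1* only the fourth at 9.12 ± 0.224, after *Foxp1* (16.3 ± 0.158) and *Foxm1* (11.6 ± 1.53).

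**Figure D1:**
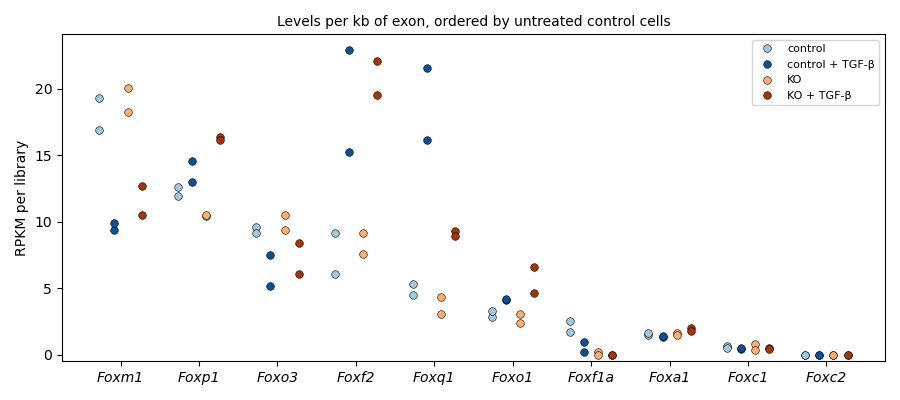
RPKM of each member in each of the 8 libraries (one point per library, linear axis), with genes ordered by their mean in untreated control cells (light blue). *Foxm1* leads in both untreated groups, and *Foxf2* and *Foxq1* rise above it in treated control cells (dark blue), where they average 19.1 and 18.9 RPKM.

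Of the 10 members, 9 passed the filter on low counts and were tested with edgeR in a fit of all 13028 tested genes, while *Foxc2* did not. Called genes had an adjusted p (Benjamini-Hochberg) below 0.05 together with a log2 fold change beyond 0.5 in either direction. TGF-β raised *Foxq1* and *Foxf2* and lowered *Foxm1* in control cells, 3 members of 9 against 9.16% of all genes called in that comparison. In the KO-labelled libraries, *Foxf2*, *Foxq1*, *Foxo1* and *Foxp1* rose and *Foxm1* fell with TGF-β, 5 of 9 against 6.82% of all genes (4.25% called higher). KO-labelled and control libraries differed in none of the 9 without TGF-β by edgeR or DESeq2, with 1 at an unadjusted p below 0.05, where 1.83% of all genes were called, and after it in *Foxq1* alone by edgeR and in 2 members by DESeq2, where edgeR called 15% of all genes. Both TGF-β comparisons share libraries with the genotype comparisons, so these counts are not independent of each other. The members were chosen with earlier results of these data known, so their counts against all genes are no test of the family. Of the other forkhead genes, 2 of 14 tested were called with TGF-β in control cells and 1 of 14 in the KO-labelled libraries. The groups did not overlap for 51.9% of all genes between the untreated genotypes, 53.7% and 56.6% with TGF-β in control and KO-labelled libraries and 55.8% between the treated genotypes, so that separation of the libraries by itself is common.

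**Figure D2:**
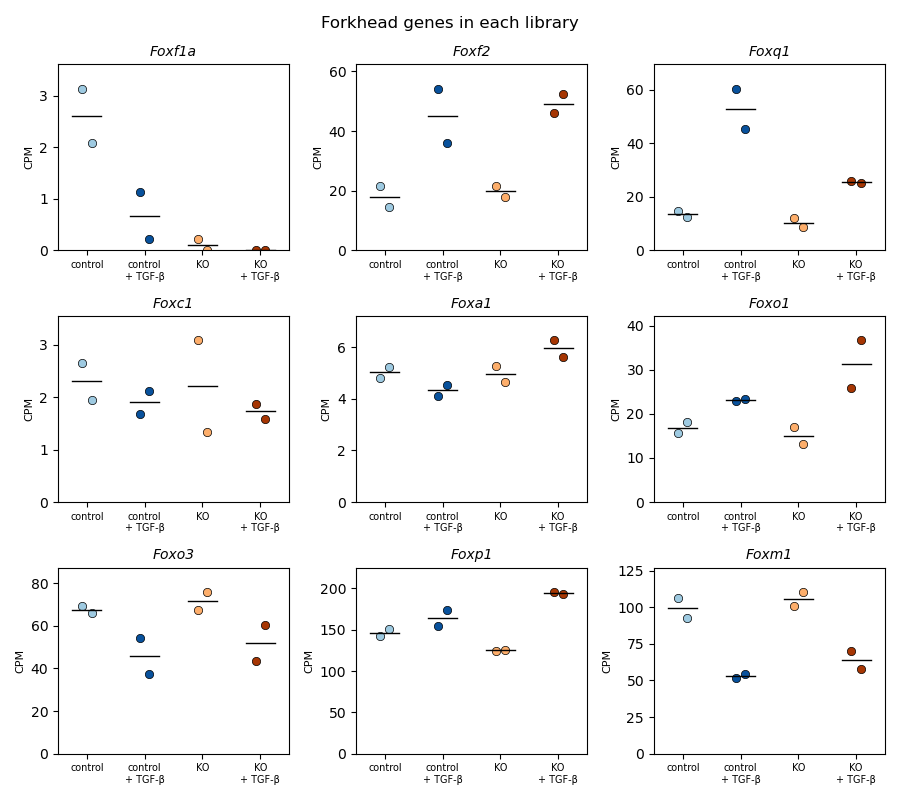
CPM in every library of the 9 members with any count, 2 points per group with the mean as a bar, on linear axes that start at 0. Treated and untreated libraries do not overlap in either genotype for *Foxf2*, *Foxq1*, *Foxm1*, *Foxa1*, *Foxo1*, *Foxo3* and *Foxp1*, and *Foxf1a* is at or near 0 in all 4 KO-labelled libraries.

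*Foxq1* had the largest rise with TGF-β of the members called in control cells, while in the KO-labelled libraries its rise was like that of *Foxf2*. It was at 14.8 and 12.6 CPM in untreated control libraries, 60.4 and 45.3 in treated control libraries, 12.1 and 8.64 in untreated KO-labelled libraries and 26.0 and 25.1 in treated ones. Every treated library was above every untreated one, and both treated KO-labelled libraries lay below both treated control libraries. TGF-β raised *Foxq1* by 1.95 on the log2 scale in control cells (SE 0.23, adjusted p = 0.00173, edgeR), which is 3.86-fold, and this call held whichever library was left out. In the KO-labelled libraries the rise was 1.32 (SE 0.24, adjusted p = 0.0119, edgeR), or 2.50-fold. After TGF-β, *Foxq1* was lower in the KO-labelled libraries than in control cells, by a log2 fold change of -1.05 (SE 0.22, adjusted p = 0.0140, edgeR). That call was lost without treated KO replicate 1 (adjusted p = 0.0518) or 2 (0.0904) and in a fit of only the 4 treated libraries (0.0565), with log2 fold changes of -1.07, -1.01 and -1.04. Without TGF-β the difference was -0.42 with a 95% interval of -0.97 to 0.13 (adjusted p = 0.470, edgeR). The test of the difference itself, the interaction of genotype and TGF-β, gave -0.63 (interval -1.36 to 0.10, adjusted p = 0.620, edgeR), so a smaller response in the KO-labelled libraries was not shown.

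*Foxq1* has a single exon of 2801 bases, of which 1164 (41.6%) are also exon of *A530084C06Rik* on the other strand. Whether reads were counted by strand is not given in the sources used here, so reads in this stretch cannot be assigned to either gene with certainty. *A530084C06Rik* was at 11.5 and 11.0 CPM in untreated control libraries, 12.7 and 11.7 in treated control libraries, 15.7 and 12.8 in untreated KO-labelled libraries and 21.6 and 19.6 in treated ones. Between treated libraries it was higher in those labelled KO (log2 fold change 0.75, SE 0.21, adjusted p = 0.0418, edgeR), the opposite direction to *Foxq1*. In control cells TGF-β moved it by 0.13 (adjusted p = 0.753, edgeR), while *Foxq1* rose 3.86-fold. In the KO-labelled libraries it moved with *Foxq1*, by 0.54 (SE 0.21, adjusted p = 0.171, edgeR) without being called, and the part of shared reads in either value was not tested.

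*Foxf2* rose with TGF-β in both genotypes, with like estimates. It was at 21.7 and 14.4 CPM in untreated control libraries and 54.3 and 36.0 in treated ones, against 21.6 and 17.9 in untreated KO-labelled libraries and 46.2 and 52.3 in treated ones. Treated libraries were above untreated ones without overlap, and the genotypes overlapped within each treatment. The log2 fold change was 1.32 (SE 0.26, adjusted p = 0.0167, edgeR) in control cells and 1.32 (SE 0.26, adjusted p = 0.0181, edgeR) in the KO-labelled libraries, and the interaction was 0.00 with a 95% interval of -0.83 to 0.83, which leaves room for a sizeable difference. In control cells the call was lost without control replicate 1 (adjusted p = 0.0516) or 2 (0.115) and in a fit of only those 4 libraries (0.0503). Its difference between genotypes was 0.12 (interval -0.48 to 0.73) without TGF-β and 0.13 (-0.43 to 0.68) with it.

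*Foxc1*, the third gene of the chromosome 13 group, stayed low. It had 22 and 16 counts in untreated control libraries, 18 and 20 in treated ones, 14 and 10 in untreated KO-labelled libraries and 23 and 20 in treated ones, or 1.33 to 3.09 CPM. The groups overlapped in both TGF-β comparisons and in both genotype comparisons. TGF-β moved it by -0.28 in control cells (95% interval -1.42 to 0.86) and -0.28 in the KO-labelled libraries (-1.48 to 0.91). These intervals overlap those of *Foxf2* (0.74 to 1.90 and 0.74 to 1.91), and a difference between the 2 genes was not tested. Of the other genes of this stretch, *Serpinb6b*, a serpin protease inhibitor, rose with TGF-β in control cells (log2 fold change 1.17, adjusted p = 0.0273, edgeR). *Exoc2*, *Gmds* and *Serpinb1a* were called in no comparison, and *Irf4*, *Dusp22* and *Hus1b* did not pass the filter.

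*Foxf1a* was the member that separated the genotypes most. It had 26 and 17 counts in untreated control libraries (3.14 and 2.08 CPM), 12 and 2 in treated control libraries (1.12 and 0.212), 1 and 0 in untreated KO-labelled libraries and 0 in both treated ones. The KO-labelled libraries lay below the control libraries at both conditions, and treated control libraries lay below untreated ones. Without TGF-β the summed counts of 43 against 1 give a ratio of 31.5 after scaling, with a 95% counting interval of 5.35 to 1271. Both KO-labelled libraries were under the level of 3 counts, and against that floor the difference was at least 4.92-fold. The edgeR test across all genes gave *Foxf1a* an adjusted p of 0.113. With TGF-β its level was at least 2.77-fold below that of control cells, taken against a floor of 3 counts in each library (adjusted p = 0.0536, edgeR). That bound rests on treated control replicate 1, since replicate 2, with 2 counts, was itself under the floor and gives no bound alone. Neither comparison was called, and the p-values moved with the settings. DESeq2 (adjusted p = 0.0234), no filter on low counts (0.00422) and leaving out treated control replicate 2 (0.0370) each called the treated comparison, and no filter (0.00460) and a fit of only the 4 untreated libraries (0.0140) called the untreated one. In control cells TGF-β moved it by -1.91 (SE 0.79, adjusted p = 0.166, edgeR), which became -3.55 without treated control replicate 1 and -1.2 without replicate 2, neither of them called.

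*Foxc2* had 0 counts in all 8 libraries, which allows a level of up to 0.238 to 0.661 CPM. Also at 0 was *Foxl1*, the next forkhead gene on chromosome 8, whose entry in the gene annotation used here is marked as a pseudogene. *Mthfsd*, which lies between *Foxf1a* and *Foxc2*, was expressed in all groups, at 29.7 to 31.8 CPM in untreated control libraries and 35.9 to 36.7 in untreated KO-labelled libraries, and was called in no comparison. Of the other genes of this stretch, *Map1lc3b* and *Cox4nb* were higher in the treated KO-labelled libraries than in treated control cells (log2 fold changes 0.54 and 0.66, adjusted p = 0.0294 and 0.0298, edgeR). *Map1lc3b* encodes the autophagosome protein LC3B. *Fbxo31* and *Cox4i1* were called in no comparison. Across the 695 tested genes of chromosome 8 the median log2 fold change between the genotypes was 0.18 without and 0.17 with TGF-β, against 0.02 and -0.01 for all genes.

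**Figure D3:**
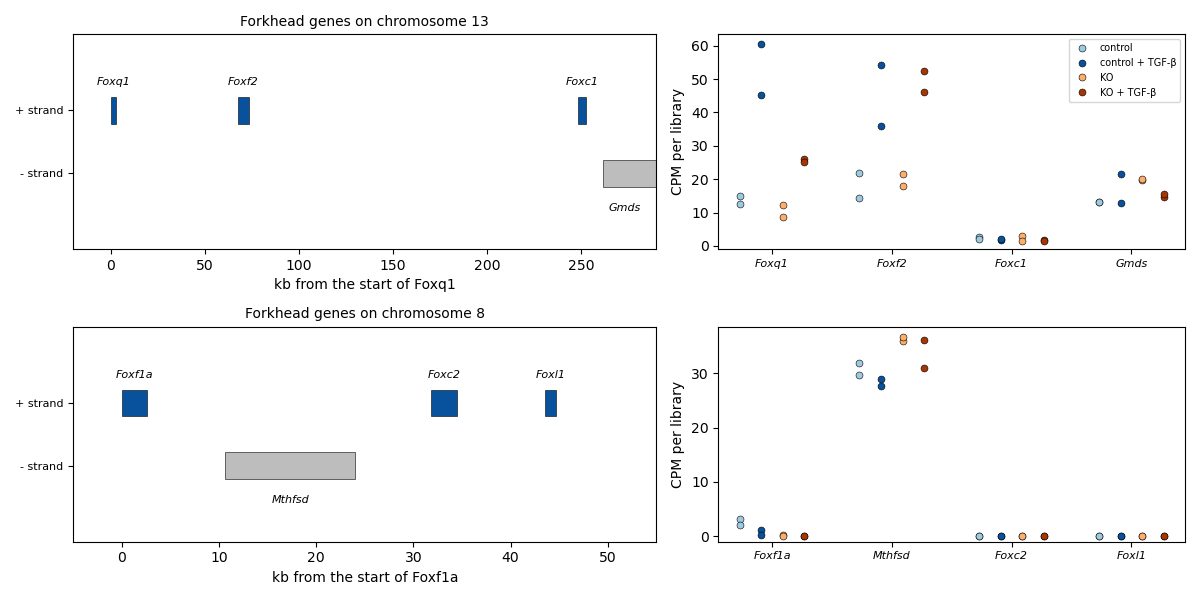
Left, the forkhead genes of chromosomes 13 and 8 (blue) and a neighbour (grey) drawn to scale in kb from the start of *Foxq1* or *Foxf1a*, with strands separated; *Gmds* runs past the edge. Right, CPM of the same genes in each library, 2 points per group: *Foxq1* and *Foxf2* rise with TGF-β, *Foxc1* stays at 1.33 to 3.09 CPM, and *Foxc2* and *Foxl1* are at 0.

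*Foxa1*, the luminal pioneer factor, was low and called in no comparison. It was at 4.82 and 5.25 CPM in untreated control libraries, 4.12 and 4.55 in treated ones, 5.29 and 4.65 in untreated KO-labelled libraries and 6.28 and 5.64 in treated ones. The treated KO-labelled libraries were above all others, with a log2 difference from treated control cells of 0.46 (95% interval -0.21 to 1.12, adjusted p = 0.323, edgeR).

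*Foxo1* rose with TGF-β in the KO-labelled libraries. It was at 15.6 and 18.2 CPM in untreated control libraries, 23.0 and 23.3 in treated ones, 17.0 and 13.2 in untreated KO-labelled libraries and 25.8 and 36.7 in treated ones. Treated libraries were above untreated ones in both genotypes, and the 2 treated KO-labelled libraries lay far apart. The log2 fold change was 1.07 in the KO-labelled libraries (SE 0.24, adjusted p = 0.0286, edgeR) and 0.45 in control cells (95% interval -0.06 to 0.97, adjusted p = 0.240, edgeR). The interaction was 0.61 (interval -0.13 to 1.35, adjusted p = 0.632, edgeR), so the responses were not shown to differ. *Foxo1* lies on chromosome 3, where the median log2 fold change of 641 genes between the genotypes was -0.34 without and -0.34 with TGF-β, while that of *Foxo1* was -0.17 (interval -0.72 to 0.37) and 0.44 (-0.07 to 0.94). The part of the chromosome in the values of *Foxo1* was not tested. The median of these genes with TGF-β was 0.09 in control cells and 0.10 in the KO-labelled libraries.

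*Foxo3*, the more abundant FOXO gene, had lower values after TGF-β without being called. It was at 69.2 and 65.8 CPM in untreated control libraries, 54.1 and 37.3 in treated ones, 67.5 and 75.9 in untreated KO-labelled libraries and 43.6 and 60.3 in treated ones. Treated libraries were below untreated ones without overlap in both genotypes. The log2 fold change was -0.56 in control cells (95% interval -1.05 to -0.08, adjusted p = 0.133, edgeR) and -0.47 in the KO-labelled libraries (-0.95 to 0.02, adjusted p = 0.238, edgeR). It was called in control cells without treated control replicate 1 (-0.87, adjusted p = 0.0367) and with no filter on low counts (-0.57, adjusted p = 0.0488).

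*Foxp1* had the highest CPM of the members. It was at 143 and 151 CPM in untreated control libraries, 155 and 174 in treated ones, 124 and 126 in untreated KO-labelled libraries and 196 and 193 in treated ones. The 4 groups did not overlap. TGF-β raised it by 0.64 on the log2 scale in the KO-labelled libraries (SE 0.13, adjusted p = 0.0221, edgeR), with a difference of 0.17 in control cells (95% interval -0.13 to 0.46, adjusted p = 0.450, edgeR). Among the members *Foxp1* alone had an interaction with an unadjusted p below 0.05 (0.47, SE 0.19, unadjusted p = 0.0303, adjusted p = 0.519, edgeR). Over all 13028 genes edgeR called 0 interactions, with 1134 at an unadjusted p below 0.05, limma-voom called 0 and DESeq2 30.

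*Foxm1* fell with TGF-β in both genotypes. It was at 106 and 92.9 CPM in untreated control libraries, 51.7 and 54.6 in treated ones, 101 and 110 in untreated KO-labelled libraries and 69.8 and 57.9 in treated ones. Every treated library was below every untreated one. The log2 fold change was -0.91 in control cells (SE 0.16, adjusted p = 0.00972, edgeR) and -0.73 in the KO-labelled libraries (SE 0.16, adjusted p = 0.0250, edgeR), with an interaction of 0.18 (95% interval -0.31 to 0.67). The call in control cells was lost without control replicate 1 (-0.81, adjusted p = 0.110). Between genotypes *Foxm1* differed by 0.08 without TGF-β (interval -0.26 to 0.43) and 0.26 with it (-0.08 to 0.61).

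All 5 calls of the TGF-β comparison in the KO-labelled libraries were lost when untreated KO replicate 1 (adjusted p from 0.0541 to 0.153) or 2 (0.133 to 0.222) was left out, which leaves that group with 1 library assumed to vary like the others. Without treated KO replicate 2, *Foxq1* alone was called, and the other adjusted p-values ran from 0.0807 to 0.204. Without treated KO replicate 1, *Foxp1* was lost (0.0608), without control replicate 1 *Foxo1* (0.0504) and *Foxm1* (0.0501), and without control replicate 2 *Foxo1* (0.0504). The direction of each of the 5 was the same in all of these fits.

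**Figure D4:**
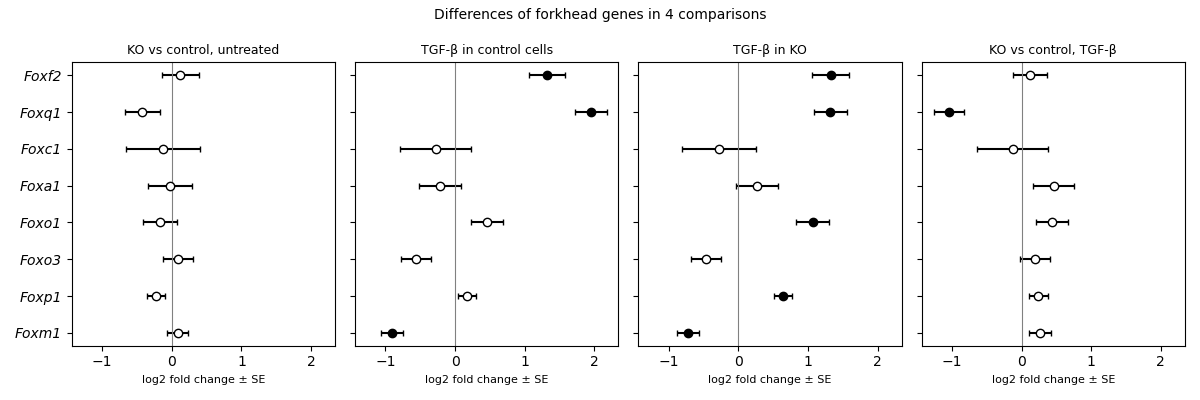
Log2 fold change with its standard error for 8 members (*Foxf1a* and *Foxc2* are left out because groups are at or near 0) in the 4 comparisons, from the edgeR fit of all libraries. Filled points were called and open points were not: 0, 3, 5 and 1 members from left to right.

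Genes known as targets of FOXM1, a list of 24 cell-cycle genes all of which were tested, had no common direction with TGF-β in control cells. There, 12 of them were above and 12 below 0, with a median log2 fold change of -0.02 (0.02 over all genes), and 1 fell, *Cdc25b*, a phosphatase that activates CDK1 (-0.90, adjusted p = 0.0480, edgeR), where 4.47% of all genes were called lower. In the KO-labelled libraries, 24 of 24 were below 0 with a median of -0.46 (0.00 over all genes), and 4 fell, where 2.57% of all genes were called lower. These were *Skp2*, which targets the inhibitor p27 for degradation (-0.89, adjusted p = 0.0322), the mitotic kinase *Aurkb* (-0.79, 0.0397), *Cdc25b* (-0.95, 0.0479) and *Cdc20*, an activator of the anaphase-promoting complex (-0.69, 0.0484), all by edgeR. The interaction of genotype and TGF-β had a median of -0.41 over the list (0.00 over all genes), with 3 above and 21 below 0, but edgeR called none of these genes, as over all genes, so the responses were not shown to differ.
After TGF-β, 10 of the 24 were lower in the KO-labelled libraries than in control cells and none higher, where 6.57% of all genes were called lower, and the median was -0.68. *Cks1b* (-0.97, adjusted p = 0.00652), the mitotic kinase *Cdk1* (-0.90, 0.00670), *Skp2* (-1.13, 0.00813) and the topoisomerase *Top2a* (-1.10, 0.0138) had the smallest p of edgeR. *Cdk1* was at 271 and 246 CPM in treated control libraries and 151 and 126 in treated KO-labelled libraries, and *Top2a* at 1008 and 1419 against 681 and 447. *Foxm1* itself was at 51.7 and 54.6 against 69.8 and 57.9, so it did not share their direction in this comparison. Without TGF-β, 0 of the 24 were called by edgeR and 1 by DESeq2, 23 were below 0 and the median was -0.19, while 5 were called lower in a fit of only the 4 untreated libraries and 4 with no filter on low counts.
These counts and medians depended on single libraries. Without treated KO replicate 2, 0 of the 24 were called lower in either comparison, 7 were above and 17 below 0 with TGF-β in the KO-labelled libraries (median -0.16), and 4 were above 0 between the treated genotypes (median -0.44). Calls over all genes moved with them, from 335 to 55 lower with TGF-β and from 856 to 142 lower between the treated genotypes, so 0 of 24 is near the background of that fit. Without treated KO replicate 1 the calls numbered 6 with TGF-β (median -0.74) and 15 between the treated genotypes (median -1.05), where 255 and 455 of all genes were called lower. Without treated control replicate 2 the treated genotypes differed in 5, and a fit of only the 4 libraries gave 1 in each comparison. The median between the untreated genotypes was -0.09 without control replicate 1 and -0.32 without control replicate 2, and that with TGF-β in control cells 0.09 without treated control replicate 1 and -0.10 without replicate 2. The 4 calls with TGF-β in KO-labelled libraries were also lost without any of the 4 untreated libraries, and the 1 in control cells without any of those 4 or treated control replicate 1.

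FOXO target genes moved in both directions. Of 30 listed, 26 were tested, and TGF-β raised 4 and lowered 2 in control cells, where 4.69% and 4.47% of all genes were called higher and lower. *Gadd45b* (log2 fold change 1.75, adjusted p = 0.000890) and *Gadd45a* (2.22, 0.00683), stress sensors that slow the cell cycle, the atypical cyclin *Ccng2* (1.35, 0.00165) and the muscle ubiquitin ligase *Fbxo32* (2.18, 0.0244) rose, while *Sesn2*, an inhibitor of mTORC1 (-1.75, 0.00175), and *Bbc3*, a trigger of apoptosis (-2.00, 0.0181), fell by edgeR's test.
In the KO-labelled libraries, 5 rose and 1 fell, where 4.25% and 2.57% of all genes were called higher and lower. *Gadd45b* rose by 2.33 (adjusted p = 0.000313), *Ccng2* by 1.36 (0.00168), *Cited2*, a co-regulator that binds CBP and p300, by 0.88 (0.0111), *Gadd45a* by 1.83 (0.0156) and *Fbxo32* by 1.92 (0.0480), and *Sesn2* had a log2 fold change of -0.91 (0.0252), all by edgeR. These genes have other known inducers, and several are direct targets of TGF-β signals.
Between the treated genotypes, 4 were higher in the KO-labelled libraries (*Sesn2* 1.16, *Cited2* 0.69, *Pink1* 1.03 and *Map1lc3b* 0.54) and 2 lower (*Pmaip1* -1.08 and *Bnip3* -1.17), with adjusted p-values of edgeR from 0.00776 to 0.0330, where 8.47% and 6.57% of all genes were called higher and lower. Without treated KO replicate 2 or in a fit of only the 4 treated libraries these 6 calls fell to 0, and without treated control replicate 2 to 2. Without TGF-β none of the 26 was called by edgeR and 1 by DESeq2, with a median of 0.01. The median was 0.25 with TGF-β in control cells (0.13 without treated control replicate 1) and 0.26 in the KO-labelled libraries. The 6 calls in control cells fell to 3 without control replicate 1, and the 6 in the KO-labelled libraries fell to 3, 2 and 3 without untreated KO replicate 1, untreated KO replicate 2 and treated KO replicate 2.

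**Figure D5:**
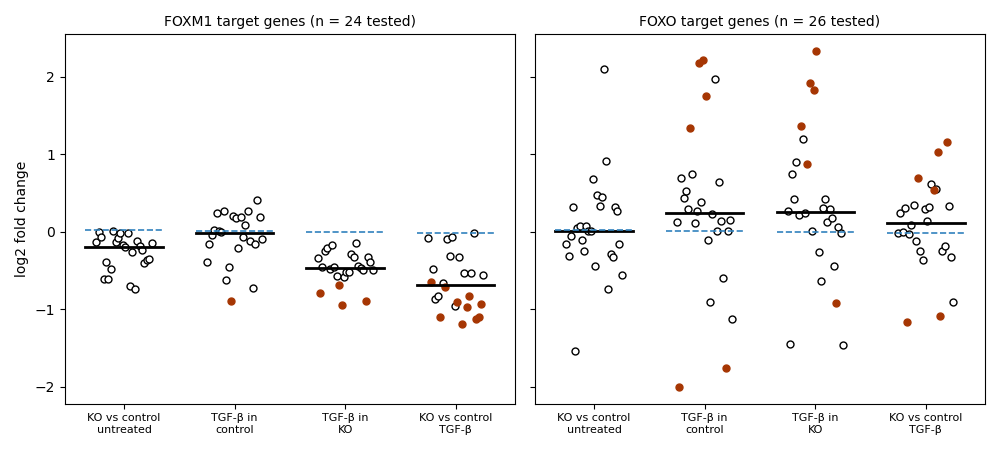
Log2 fold change of each tested FOXM1 target (left, n = 24) and FOXO target (right, n = 26) in the 4 comparisons, with called genes filled. Black bars are the medians of the lists and dashed blue lines those of all 13028 genes: the FOXM1 targets are centred on -0.02 with TGF-β in control cells and on -0.46 in the KO-labelled libraries.

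Among 18 kinases, cofactors and partners that act on forkhead proteins, TGF-β raised *Sgk1*, a kinase that phosphorylates FOXO proteins, and *Smad3*, which binds them. *Sgk1* was at 22.0 and 31.1 CPM in untreated control libraries and 187 and 132 in treated ones, a rise of 2.58 on the log2 scale (adjusted p = 0.000948, edgeR), and it rose by 2.44 in the KO-labelled libraries (adjusted p = 0.00150, edgeR). *Smad3* rose by 0.80 (adjusted p = 0.0341) and 0.99 (0.0171). These were the only 2 of the 18 called in either TGF-β comparison, where 9.16% of all genes were called in control cells and 6.82% in the KO-labelled libraries, so their number is near the background. The related kinase *Sgk3* separated the genotypes, with 27.6 and 28.2 CPM in untreated control libraries against 6.83 and 8.51 in untreated KO-labelled libraries (log2 fold change -1.85, adjusted p = 0.00355, edgeR) and -1.86 after TGF-β (adjusted p = 0.00109, edgeR). Also between the treated genotypes, *Ywhaz*, a 14-3-3 protein that retains phosphorylated FOXO in the cytoplasm, was higher by 0.56 (adjusted p = 0.0259) and *Pik3ca*, the catalytic subunit of PI3-kinase, lower with a log2 fold change of -0.58 (0.0294). With *Sgk3* these were 3 of 18, near the 15% of all genes called there. The 2 calls with TGF-β in control cells became 1 without any of the 4 untreated libraries, with the replicate block and in a fit of only those 4 libraries. Those in KO-labelled libraries became 1 without either untreated KO-labelled library or treated KO replicate 2, and 4 without either treated control library. The 3 between the treated genotypes became 1 without treated control replicate 2 or any KO-labelled library and in a fit of only the 4 treated ones, 6 with no filter on low counts and 5 with a replicate block in which the numbers of the treated KO-labelled libraries were exchanged.

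Of 10 luminal factors that act beside FOXA1, 5 were tested. *Ehf*, an epithelial ETS factor, was at 10.7 and 17.3 CPM in untreated control libraries and 3.31 and 3.19 in those labelled KO (log2 fold change -2.11, adjusted p = 0.0187, edgeR), and at 19.7 and 27.7 against 1.96 and 2.38 after TGF-β (-3.44, adjusted p = 0.000812, edgeR). It was the only one of the 5 called between genotypes, where 1.83% of all genes were called without and 15% with TGF-β. The untreated call of *Ehf* was lost with limma-voom and without control replicate 2 or either untreated KO-labelled library. *Xbp1*, which drives secretory genes, rose with TGF-β by 0.96 in control cells (adjusted p = 0.0109, edgeR) and 1.04 in the KO-labelled libraries (0.00825). Besides *Xbp1* and *Foxa2*, described next, no luminal factor was called with TGF-β, where 9.16% of all genes were called in control cells and 6.82% in the KO-labelled libraries. These 2 calls became 1 in control cells without either untreated control library and 1 in the KO-labelled libraries without untreated KO replicate 1. Between the treated genotypes the 1 call became 3 with DESeq2 and 2 without treated control replicate 1 or either treated KO-labelled library. Of 14 genes of the Hedgehog pathway, upstream of the FOXF genes, 7 were tested, and *Gli3* alone was called, with TGF-β in the KO-labelled libraries (1.41, adjusted p = 0.0433, edgeR), 1 of 7 against 6.82% of all genes. That call was lost without any of the untreated libraries or either treated KO-labelled library, with limma-voom, thinned counts and the replicate block, and in a fit of only the 4 libraries. Between the untreated genotypes 1 gene of the list was called lower with DESeq2, with no filter and with only the 4 libraries, and between the treated ones 2 were called higher with the exchanged numbers.

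Of the 34 other forkhead genes, 17 were at 0 in all libraries and 14 were tested. *Foxa2*, a regulator of endodermal epithelia, was the only one of them called with TGF-β in both genotypes, at 52.7 and 53.5 CPM in untreated control libraries, 17.9 and 17.8 in treated ones, 57.3 and 57.3 in untreated KO-labelled libraries and 23.4 and 18.7 in treated ones. Every treated library was below every untreated one. Its log2 fold change was -1.57 in control cells (SE 0.17, adjusted p = 0.00116, edgeR) and -1.45 in the KO-labelled libraries (SE 0.17, adjusted p = 0.00169, edgeR). *Foxj1*, a driver of motile cilia, had a larger fitted change in control cells that was not called (1.63, SE 0.60, adjusted p = 0.119, edgeR). *Foxk1*, which represses autophagy genes, fell in control cells (-0.89, adjusted p = 0.0465, edgeR). After TGF-β, *Foxp4* (1.10, adjusted p = 0.0161), *Foxj2* (0.95, 0.0342) and *Foxk1* (0.88, 0.0346) were higher in the KO-labelled libraries than in control cells, 3 of 14 against 8.47% of all genes. Treated KO replicate 1 was nearer to the control libraries for these 3 genes, with 40.5 against 59.6 CPM for *Foxp4*. Without treated control replicate 2 these 3 calls fell to 0 and without treated KO replicate 2 to 1, without treated control replicate 1 there were 5. They numbered 6 with DESeq2, 7 of 17 with no filter, 1 with the replicate block and 0 in a fit of only the 4 treated libraries. The 2 calls with TGF-β in control cells, of 14 against 9.16% of all genes, fell to 1 without either untreated control library, treated control replicate 2 or either untreated KO-labelled library, and with limma-voom, the replicate block, thinned counts or only those 4 libraries. No other forkhead gene was called between the untreated genotypes by edgeR, and 1 was by DESeq2, with no filter, in a fit of only the 4 untreated libraries and without untreated KO replicate 1. *Foxj1* had the largest fitted difference there, at 1.21 and 2.44 CPM in control libraries against 4.19 and 15.2 in those labelled KO (log2 fold change 2.45, SE 0.59, adjusted p = 0.0833, edgeR).

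The genes nearest in pattern to each called member were sought by the root mean square difference of mean-centred log2 CPM over the 8 libraries, where 0 is identity. For *Foxf2* they were *Vgll4* (0.14), *Rgs3* (0.16) and *2010111I01Rik* (0.17), where the median gene stood at 0.77. For *Foxq1* they were *Jak2* (0.29), *Utp14b* (0.29) and *1810011O10Rik* (0.32), less close in pattern, with a median of 0.97. *Foxm1* was nearest to *Tab1* (0.08), *Taf6l* (0.09) and *Zfp692* (0.09), *Foxo1* to *Mgat5* (0.12), *Rras* (0.15) and *Rnf24* (0.15), and *Foxp1* to *Hsd17b12* (0.05), *Avl9* (0.05) and *Ddx5* (0.08), with medians of 0.54, 0.55 and 0.41. These likenesses describe 8 libraries that share groups and depth.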

How the data were processed

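The deposited file is one table of raw read counts by gene, unnormalized integers, with a column for each of the 8 libraries, all used here. The submitters' processing notes name HISAT2, limma and mm10, whereas the paper's methods give subjunc, mm10 and mm9, removal of duplicates and DESeq2. Kit, sequencer and read layout also differ between these sources. How reads were assigned to genes, and whether by strand, is not given in the sources used here. The 37310 gene identifiers match GENCODE vM1 (NCBIM37), which gave positions and exon lengths.

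CPM (TMM factors), RPKM (per kb of merged exons) and all tests came from edgeR 4.0.16 (R 4.3.3). The 13028 genes passing filterByExpr entered a quasi-likelihood fit of the 4 groups over all libraries, without a block (biological coefficient of variation 0.180). p-values were adjusted by the Benjamini-Hochberg method over all of them, and the thresholds of adjusted p 0.05 and absolute log2 fold change 0.5 follow the paper; the interaction was called by adjusted p alone. Intervals are 95%. The script was tested on simulated data. The members, gene lists and tests were chosen with earlier results of these data known. Named are all members, other forkhead genes that were called (*Foxj1* was added after its values were seen), all tested genes of the 2 chromosomal groups, up to 4 called genes of each further list and comparison by smallest p (for the FOXO targets up to 6, the rest chosen after their values were seen), and the 3 genes most alike each called member. Alternatives were DESeq2 1.42.0, limma-voom (limma 3.58.1), RLE factors, no filter, a mean of at least 10 counts, a replicate block, counts thinned to 4297832, fits of just the 4 libraries compared, no limit on the fold and leaving out each library. Exchanged replicate numbers and the refits of the gene lists were added after seeing the data. A marker gene of the immune list is not reported here.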

Additional observations from a re-analysis of the deposited data

How the results depend on the processing

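Of the 10 members, the number called between the treated genotypes was 1 and became 2 with DESeq2, 2 with no filter on low counts and 0 with only the 4 libraries of the comparison, and the number called between the untreated genotypes was 0 and became 1 with no filter and 1 with only the 4 libraries. With 1 library left out, the counts ranged from 0 to 0 (untreated genotypes), 1 to 4 (TGF-β in control cells), 0 to 5 (TGF-β in the KO-labelled libraries), 0 to 2 (treated genotypes) and 0 to 0 (interaction). The cause was not tested.

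Replicate numbers are shared between the groups, but nothing in the labels says that a number marks a culture or day. Deviations of same-numbered libraries correlated across 13028 genes at 0.098, 0.30, -0.0092 and -0.47 in the 4 comparisons. With the replicate block, 0, 3, 5, 1 and 0 members were called, as without it, while the 3 other forkhead genes called between the treated genotypes became 1 and calls over all genes became 150, 831, 676 and 1490. With the numbers of the treated KO-labelled libraries exchanged, 2 members and 2809 genes were called between the treated genotypes.

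Over all genes, 238 calls between the untreated genotypes became 428 with DESeq2, 137 with limma-voom, 756 with no filter and 804 with only the 4 libraries. The 1194 calls with TGF-β in control cells became 2021 with no filter and 470 with only the 4 libraries, the 889 in the KO-labelled libraries 1832 with no filter, and the 1959 between the treated genotypes 410 with only the 4 libraries. Without a filter 211 interactions were called. With 1 library left out these counts ranged from 42 to 390, 145 to 1484, 136 to 1381 and 477 to 2762 in the 4 comparisons, lowest without control replicate 2, control replicate 1, untreated KO replicate 1 and treated KO replicate 2, so the shares of all genes called move with single libraries too.

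Differences that were not called changed sign in places. The interaction of *Foxc1* was 0.12 with limma-voom, 0.0054 with RLE factors, 0.061 with no filter and 0.22 with thinned counts, and that of *Foxf1a* 0.31 with limma-voom. With 1 library left out, log2 fold changes between untreated genotypes ranged from -0.14 to 0.44 (*Foxf2*), -0.79 to 0.42 (*Foxc1*), -0.12 to 0.066 (*Foxa1*), -0.36 to 0.0042 (*Foxo1*), -0.0056 to 0.17 (*Foxo3*) and -0.013 to 0.18 (*Foxm1*), those between treated genotypes from -0.14 to 0.47 (*Foxf2*), -0.27 to 0.041 (*Foxc1*) and -0.055 to 0.50 (*Foxo3*), that of *Foxc1* with TGF-β in the KO-labelled libraries from -0.82 to 0.38, and the interactions from -2.22 to 1.91 (*Foxf1a*), -0.32 to 0.37 (*Foxf2*), -0.54 to 0.66 (*Foxc1*) and -0.12 to 0.43 (*Foxo3*). *Foxf1a* was not tested with thinned counts or a mean of at least 10 counts. Depth limits what can be said of *Foxf1a*, *Foxc1* and *Foxc2*, whose counts were at most 26 in a library.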
